A study of Mus musculus with 3 samples.

Results

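Surfactant and lamellar body genes were followed as a set of 10 genes: Sftpa1, Sftpb, Sftpc, Sftpd, Abca3, Lamp3, Lpcat1, Napsa, Slc34a2 and Etv5. They were taken by symbol from the 27998 genes of the count matrices, all 10 were found, and all 10 were counted in every library. The 3 libraries held lung cells after irradiation in FLASH mode (ultra-high dose rate), lung cells after irradiation in conventional mode (CONV) and lung cells without irradiation (control), with 1 library per group. All animals were C57BL/6 females of 10 to 12 weeks. Both irradiated groups were given 17 Gy to the thorax with 4.5 MeV electrons under isoflurane. The sources used here do not say how many mice went into a library, how long after irradiation the lungs were taken or whether controls were anaesthetised. Cells were profiled with the droplet-based 10x Genomics 3′ kit of version 2, in which each molecule is counted once by a unique molecular identifier (UMI).

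Pulmonary surfactant is a film of phospholipid and protein that lowers surface tension in the alveoli and keeps them from collapsing. It is made by alveolar type 2 (AT2) cells, packed into lysosome-related organelles called lamellar bodies and released by exocytosis. The hydrophobic proteins SP-B and SP-C help the lipids to spread, while the collectins SP-A and SP-D bind microbes and take part in innate defence. The other genes of the set serve the same organelle or cell: a lipid pump, a membrane protein, a lipid-remodelling enzyme, a protease, a phosphate transporter and a transcription factor.

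The promoters of Sftpa1 and Sftpb are shown because these genes had the most similar pattern over cell types of any pair in the set and because both were also counted in airway cells, as described further on. Each sequence is the 250 bases before the RefSeq start site, on the strand of the gene, in RefSeq's GRCm38.p6. Capitals mark CTCAAG, the core of the motif bound by NKX2-1, a lung transcription factor known to act on surfactant protein promoters. The Sftpa1 window is chr14:41131538-41131787 and the Sftpb window chr6:72304360-72304609, both on the plus strand.
Sftpa1: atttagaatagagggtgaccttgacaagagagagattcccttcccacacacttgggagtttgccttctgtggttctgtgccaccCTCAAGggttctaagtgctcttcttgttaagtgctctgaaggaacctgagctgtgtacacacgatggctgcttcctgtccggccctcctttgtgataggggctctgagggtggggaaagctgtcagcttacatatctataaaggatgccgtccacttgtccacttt
Sftpb: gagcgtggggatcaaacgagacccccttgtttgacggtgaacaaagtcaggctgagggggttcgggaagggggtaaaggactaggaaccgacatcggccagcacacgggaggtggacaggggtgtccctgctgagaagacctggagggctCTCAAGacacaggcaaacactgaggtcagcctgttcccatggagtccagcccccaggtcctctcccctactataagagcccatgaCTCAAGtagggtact
The core begins 166 bases upstream of the start in Sftpa1, and 100 and 15 bases upstream in Sftpb. Searched on both strands, CTCAAG was present in 15.9% of 32851 mouse promoter windows, and in 1.40% it was present at least 2 times, as in Sftpb. These and the following shares were counted over each whole stored window, which was not cut to the 250 bases shown. Windows were available for 7 of the 10 genes, and of these 2 held the core. The FOXA letters TGTTTAC or TGTTTGC were found in the windows of Sftpb, Lamp3 and Etv5 and in 8.48% of all windows, and the ETS letters CGGAAGT in none of the 7 genes and in 6.42% of all windows. The 3 motifs do not overlap in their letters. A match describes letters in the window and not a bound site.

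The libraries differed in depth, which bears on every share of cells given here. FLASH had 2394 barcodes and a median of 1776.5 UMIs, CONV 2507 barcodes and 2351 UMIs, and the control 1761 barcodes and 2960 UMIs. After filtering, 2253 FLASH, 2388 CONV and 1705 control cells were kept. Between 5 and 7 barcodes were shared by any pair of libraries and none by all 3. Each group is 1 library, so no test between groups was possible and no p-value is given. Brackets hold 95% intervals that cover counting error only, not the spread between mice, and FLASH over control and CONV over control share the same control library.

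AT2-like cells formed a single cluster of 869 cells, built with the 10 genes left out of the clustering and named from 8 other AT2 markers. All 8 were higher in this cluster than in the remaining cells of each library, by at least 27.5-fold in FLASH (Lyz1, lysozyme 1), at least 31.1-fold in CONV (Chil1) and at least 53.4-fold in the control (Chil1). The cluster was named because these markers were higher in it, so the folds are no separate support for its name. When the 10 genes were put back into the clustering, the AT2-like cluster held the same 869 cells. AT2-like cells made up 14.6% of FLASH cells (330 cells, 13.2 to 16.2), 16.9% of CONV cells (404 cells, 15.4 to 18.5) and 7.92% of control cells (135 cells, 6.68 to 9.30). Their median depth was 3192 UMIs in FLASH, 3863 UMIs in CONV and 6466 UMIs in the control. Levels are UMIs of a gene summed over the cells of a class and scaled to 1000000 UMIs of that class (CPM). Since each molecule is counted once at its 3′ end, CPM was not divided by transcript length.

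In AT2-like cells the 10 genes together took 27.5% of all UMIs in FLASH (27.4 to 27.5), 26.7% in CONV (26.7 to 26.8) and 29.1% in the control (29.0 to 29.2). The control was the highest library and CONV the lowest, and no pair of counting intervals overlapped. Sftpc alone was 81.0% of these UMIs in FLASH, 80.3% in CONV and 81.4% in the control. The 6 genes other than the surfactant proteins came to 0.739% of AT2-like UMIs in FLASH, 0.75% in CONV and 0.841% in the control. From cell to cell the share of the set had a median of 27.6% in FLASH, 26.5% in CONV and 30.5% in the control. The central 80% of cells ran between 20.1% and 33.8% in FLASH, between 18.4% and 33.7% in CONV and between 19.1% and 34.6% in the control, so the libraries overlapped widely. A single CONV cell lay under 10%, at 1.38%.

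**Figure D1:**
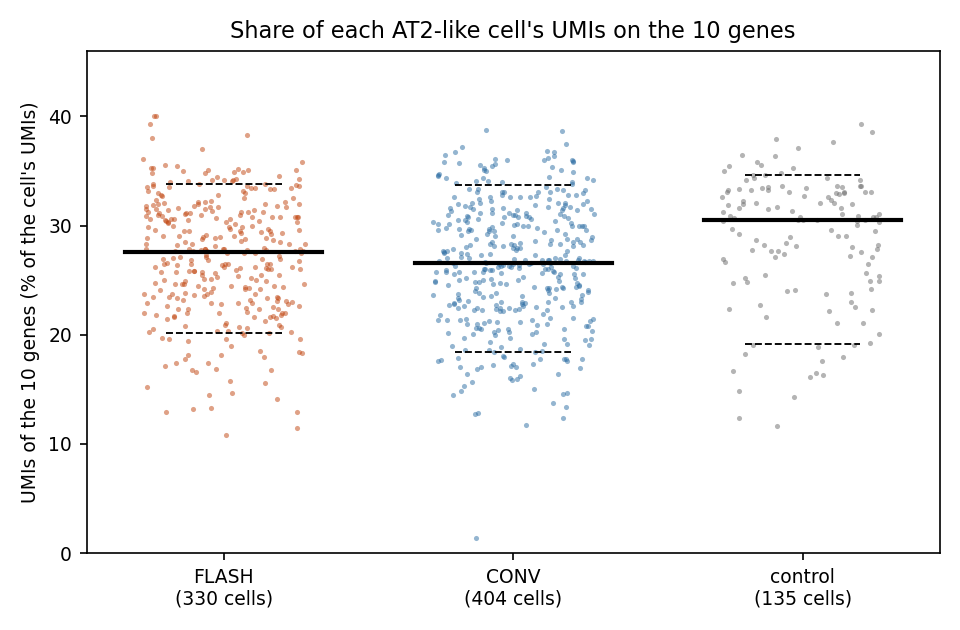
Share of each AT2-like cell's UMIs that falls on the 10 surfactant and lamellar body genes (vertical axis, percent) in FLASH, CONV and control, with 1 point per cell. Solid lines are medians (27.6%, 26.5% and 30.5%) and dashed lines the limits of the central 80% of cells, and the 3 clouds cover nearly the same range.

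Surfactant protein transcripts were the most abundant of the set, and of them SP-C was far ahead of the rest. Sftpc, which encodes the hydrophobic protein SP-C (chr14:70520949-70524081, minus strand), stood at 222530 CPM in FLASH, 214850 CPM in CONV and 236830 CPM in the control. FLASH and CONV were both below the control, and FLASH lay between CONV and the control. The ratio of FLASH over CONV was 1.04 (1.03 to 1.04), that of FLASH over control 0.940 (0.934 to 0.945) and that of CONV over control 0.907 (0.902 to 0.912).

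Sftpa1, which encodes the collectin SP-A (chr14:41131782-41136452, plus strand), was at 26324 CPM in FLASH, 26420 CPM in CONV and 25450 CPM in the control. The irradiated libraries were within counting error of each other, at a ratio of 0.996 (0.981 to 1.01). Each was slightly above the control, at 1.03 (1.02 to 1.05) for FLASH and 1.04 (1.02 to 1.06) for CONV. Sftpb, which encodes SP-B, a protein without which surfactant cannot form a working film (chr6:72304610-72314371, plus strand), had 14454 CPM in FLASH, 14961 CPM in CONV and 15751 CPM in the control. The levels followed the order FLASH, CONV, control, with ratios of 0.966 for FLASH over CONV (0.947 to 0.986), 0.918 for FLASH over control (0.897 to 0.939) and 0.95 for CONV over control (0.930 to 0.970).

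Sftpd, which encodes the collectin SP-D (chr14:41172214-41185149, minus strand, 35761 bases from Sftpa1), was the surfactant protein gene with the widest gap. It had 3906 CPM in FLASH, 3712 CPM in CONV and 4629 CPM in the control. Both irradiated libraries were lower than the control, with 0.844 for FLASH over control (0.808 to 0.881) and 0.802 for CONV over control (0.770 to 0.835). FLASH over CONV was 1.05 (1.01 to 1.10). Every AT2-like cell of all libraries held UMIs of Sftpa1, Sftpb and Sftpc, also after each cell was thinned to 1000 UMIs. Sftpd was seen in 94.8% of thinned cells in FLASH, 95.8% in CONV and 97.8% in the control. In lymphoid cells, which do not make it, the thinned shares were 3.57% in FLASH, 4.16% in CONV and 2.81% in the control.

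**Figure D2:**
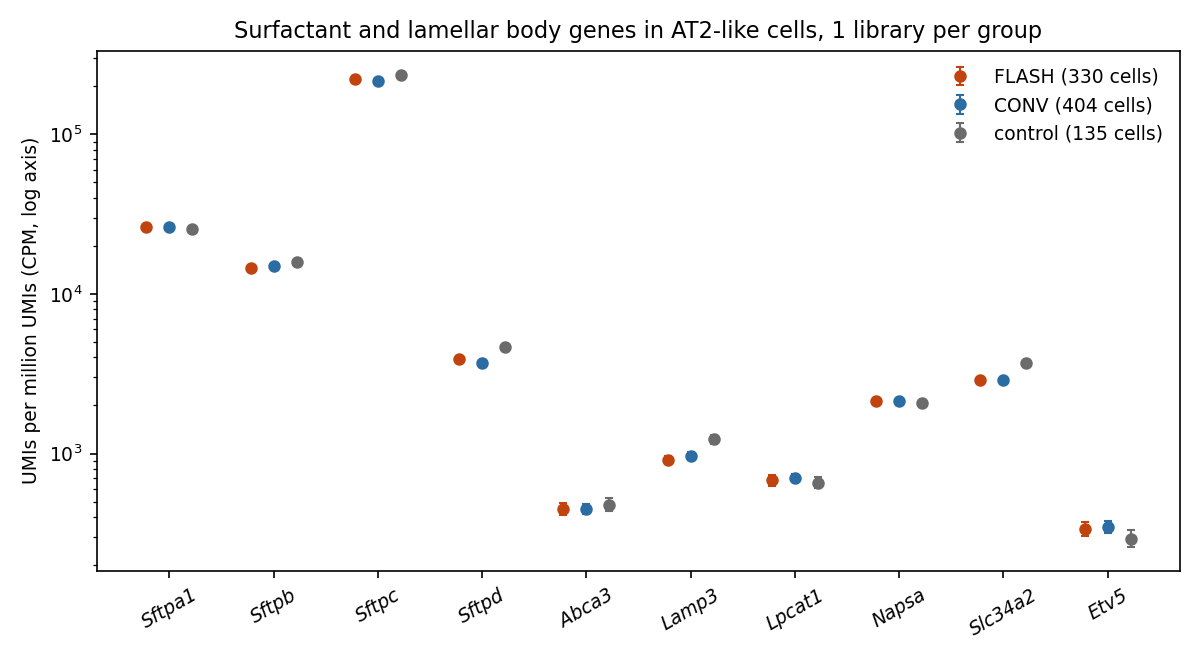
Level of each of the 10 genes in AT2-like cells (vertical axis, CPM, log scale) in FLASH, CONV and control, 1 library each. Points are UMIs summed over cells and bars are 95% Poisson intervals for counting error, and levels run over almost 3 powers of 10, with Sftpc highest and Etv5 lowest in every library.

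Of the lamellar body genes, Lamp3 was the gene of the set with the largest difference from the control in FLASH, and Abca3 showed none beyond counting error. Abca3, the pump that loads phospholipid into lamellar bodies (chr17:24351950-24410201, plus strand), was at 449 CPM in FLASH, 451 CPM in CONV and 478 CPM in the control. All 3 ratios had intervals that included 1: 0.994 for FLASH over CONV (0.884 to 1.12), 0.939 for FLASH over control (0.822 to 1.07) and 0.945 for CONV over control (0.836 to 1.07). Lamp3, a glycoprotein of the lamellar body membrane (chr16:19653378-19706375, minus strand), had 911 CPM in FLASH, 971 CPM in CONV and 1225 CPM in the control. Both irradiated libraries lay below the control, at 0.743 for FLASH (0.681 to 0.811) and 0.793 for CONV (0.733 to 0.858), and FLASH over CONV was 0.938 (0.864 to 1.02).

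Thinned to 1000 UMIs, Lamp3 was detected in 54.8% of AT2-like cells in FLASH (49.3 to 60.3), 59.7% in CONV (54.7 to 64.5) and 68.1% in the control (59.6 to 75.9). Its order was the same as that of the CPM values. Lpcat1, the acyltransferase that makes the disaturated phosphatidylcholine of surfactant (chr13:73467197-73516422, plus strand), was at 679 CPM in FLASH, 704 CPM in CONV and 658 CPM in the control. Its ratios were 0.963 (0.876 to 1.06), 1.03 (0.924 to 1.15) and 1.07 (0.968 to 1.19) for FLASH over CONV, FLASH over control and CONV over control, all with intervals that included 1.

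Napsa and Slc34a2 went different ways. Napsa, the aspartic protease napsin A that helps to cut the SP-B precursor (chr7:44572380-44586862, plus strand), had 2131 CPM in FLASH, 2143 CPM in CONV and 2070 CPM in the control. The 3 libraries were within counting error of each other, with 0.995 for FLASH over CONV (0.943 to 1.05), 1.03 for FLASH over control (0.967 to 1.10) and 1.03 for CONV over control (0.977 to 1.10). Slc34a2, the sodium phosphate cotransporter that takes up phosphate released from surfactant lipid (chr5:53038081-53071664, plus strand), had 2880 CPM in FLASH, 2881 CPM in CONV and 3684 CPM in the control. FLASH and CONV were level with each other, at 1.00 (0.955 to 1.05), and both below the control, each at 0.782 (0.744 to 0.822 for FLASH, 0.747 to 0.818 for CONV). Abca3, Napsa and Slc34a2 overlap annotated genes of the opposite strand, and the sources used here do not say whether the counting used the strand.

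Etv5, an ETS transcription factor that keeps AT2 cells in their state (chr16:22381309-22439719, minus strand), was the lowest of the set and the one furthest above the control. It was at 338 CPM in FLASH, 345 CPM in CONV and 293 CPM in the control. The interval of FLASH over control included 1, at 1.15 (0.980 to 1.36), and that of CONV over control came close to it, at 1.18 (1.01 to 1.37). FLASH over CONV was 0.979 (0.854 to 1.12). Etv5 was seen in 26.7% of thinned cells in FLASH (22.0 to 31.8), 28.5% in CONV (24.1 to 33.1) and 20.7% in the control (14.2 to 28.6), and these intervals overlapped.

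Between irradiation modes no gene of the set differed by more than 6.23%. FLASH over CONV ran between 0.938 (Lamp3) and 1.05 (Sftpd), and 0 of the 10 genes reached a 1.5-fold difference, which 7.62% of the 4503 genes with at least 30 UMIs in the higher library did (2% higher and 5.62% lower in FLASH). Against the control, ratios ran between 0.743 (Lamp3) and 1.15 (Etv5) in FLASH and between 0.782 (Slc34a2) and 1.18 (Etv5) in CONV. Again 0 of 10 reached 1.5-fold, beside 16.6% of 3375 genes for FLASH over control (8.68% higher, 7.88% lower) and 17.3% of 4501 genes for CONV over control (11.6% higher, 5.73% lower). The genes of the set are more abundant than most, and among genes with at least 250 UMIs in both libraries the shares past 1.5-fold were 0.723% of 415 genes, 4.94% of 344 genes and 11.1% of 352 genes for the same 3 comparisons. The median log2 ratio of the set was -0.01 for FLASH over CONV, -0.09 for FLASH over control and -0.08 for CONV over control. Over all genes tested it was -0.04, -0.01 and 0.03.

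**Figure D3:**
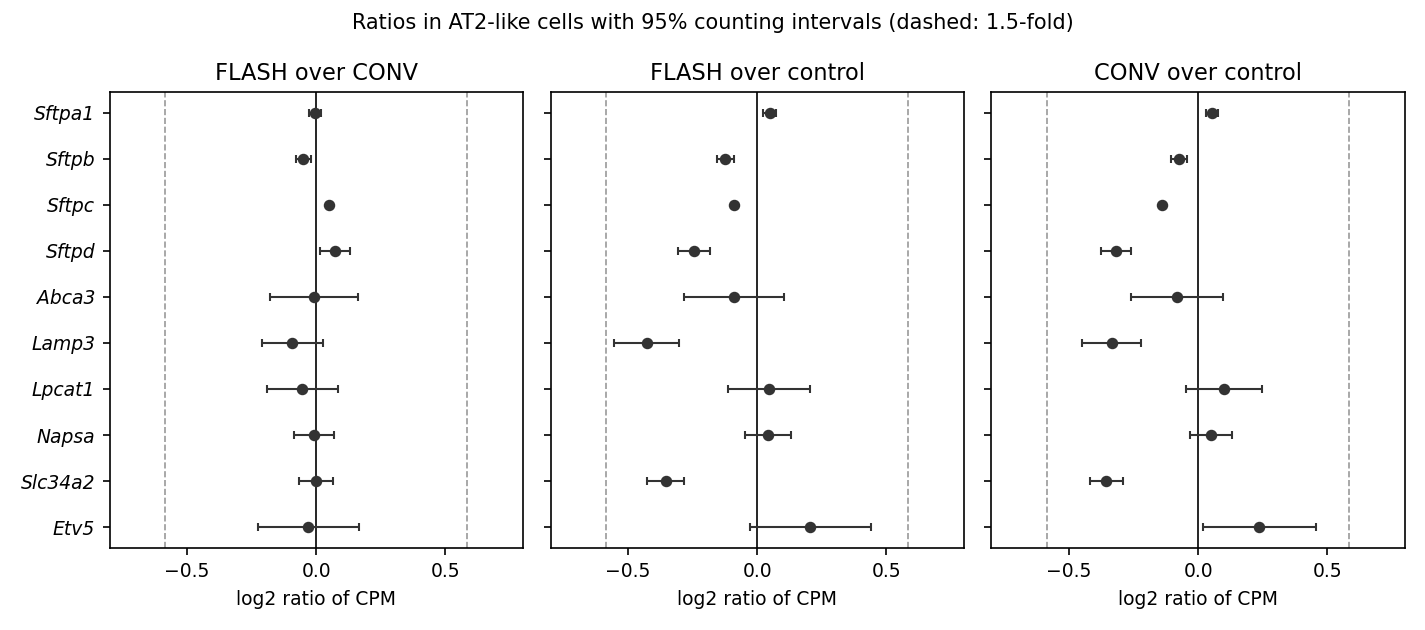
Log2 ratio of CPM in AT2-like cells for each of the 10 genes (horizontal axis) for FLASH over CONV, FLASH over control and CONV over control, the last 2 of which share the control library. Bars are 95% intervals for counting error and dashed lines mark 1.5-fold, which no gene reaches. Lamp3, Slc34a2 and Sftpd lie furthest to the left against the control, and all genes lie near 0 in FLASH over CONV.

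Spearman's rho between AT2-like cells of 1 library was near 0 for most pairs of genes and positive for pairs of surfactant protein genes. Sftpb and Sftpc had a rho of 0.25 in FLASH, 0.42 in CONV and 0.34 in the control, and Sftpa1 and Sftpd 0.19 in FLASH, 0.28 in CONV and 0.41 in the control. All 6 pairs of the 4 surfactant protein genes were positive in every library, the weakest being Sftpc and Sftpd in the control at 0.0047. Slc34a2 was negative with each of these 4 genes in every library. With Sftpc its rho was -0.16 in FLASH, -0.17 in CONV and -0.23 in the control. Over all 45 pairs of genes and after thinning to 1000 UMIs, rho had a median of 0.017 in FLASH (330 cells, range -0.16 to 0.25), 0.020 in CONV (404 cells, -0.17 to 0.42) and -0.00063 in the control (135 cells, -0.23 to 0.41). These values describe cells that share a library and are drawn toward 0 by sparse counts. At a fixed total of UMIs, a higher share of Sftpc also leaves fewer UMIs for other genes.

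Other genes of AT2 cells, from 4 lists, show how the set sits among its neighbours. Over all genes tested, the shares past 1.5-fold were 2% higher and 5.62% lower for FLASH over CONV. They were 8.68% and 7.88% for FLASH over control, and 11.6% and 5.73% for CONV over control. The lists are short, and their counts were not tested against these shares. Of 16 other AT2 genes none was past 1.5-fold between FLASH and CONV. Against the control, 4 were lower in each irradiated library and none higher. These 16 genes include the 8 markers that named the AT2-like cluster, among them Hc and Cxcl15. Hc, the complement component C5, was at 537 CPM in FLASH, 562 CPM in CONV and 967 CPM in the control, with ratios to the control of 0.555 (0.499 to 0.618) in FLASH and 0.581 (0.528 to 0.639) in CONV. Cxcl15, a lung chemokine, was at 4112 CPM in FLASH, 4373 CPM in CONV and 6733 CPM in the control. Its ratios to the control were 0.611 (0.587 to 0.635) in FLASH and 0.649 (0.627 to 0.672) in CONV. Muc1, a membrane mucin, was past the same fold in both, at 0.639 in FLASH and 0.667 in CONV. The alarmin Il33 was at 0.517 in FLASH (0.435 to 0.613) and 0.661 in CONV. The median log2 ratio of this list to the control was -0.29 in FLASH and -0.28 in CONV, while that of the 10 surfactant and lamellar body genes was -0.09 and -0.08.

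Of the genes for surfactant lipid synthesis, 17 could be compared between FLASH and CONV and none was past 1.5-fold, beside 7.62% of all genes. Scd1, the stearoyl-CoA desaturase, had 4834 CPM in FLASH, 6633 CPM in CONV and 4256 CPM in the control. CONV was the high library, with 0.729 for FLASH over CONV (0.705 to 0.753), 1.14 for FLASH over control (1.09 to 1.18) and 1.56 for CONV over control (1.5 to 1.62). Fabp5, a fatty acid binding protein, had 1436 CPM in FLASH, 1883 CPM in CONV and 1039 CPM in the control, in the same order. Its ratios were 0.763 (0.717 to 0.812) for FLASH over CONV, 1.38 (1.27 to 1.5) for FLASH over control and 1.81 (1.68 to 1.95) for CONV over control. Against the control 3 of 17 genes were past the fold and higher in CONV and none lower. Besides Scd1 and Fabp5 this was Lpin1, a phosphatidate phosphatase, at 20.3 CPM in CONV and 7.92 CPM in the control. In FLASH 1 of 14 was lower and none higher, and this was Cept1, a choline and ethanolamine phosphotransferase, at 27.2 CPM in FLASH and 43.0 CPM in the control. Lpin1 and Cept1 were named after their values were seen.

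In the list of processing and trafficking genes, 0 of 15 passed the fold between FLASH and CONV and 0 of 12 between FLASH and control. Over all genes these shares were 7.62% and 16.6%. For CONV over control 1 of 15 was higher, Rab38, a small GTPase of lysosome-related organelles, at 1.92 (1.04 to 3.78), and 2 were lower. One of these was Cd63, a tetraspanin of late endosomes and lamellar bodies, at 574 CPM in CONV and 932 CPM in the control, a ratio of 0.616 (0.560 to 0.678). In FLASH Cd63 stood at 626 CPM, a ratio to the control of 0.672 (0.606 to 0.745). The other was Syt7, a calcium sensor of lysosome exocytosis, at 0.666 (0.446 to 0.999).

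Among AT2 transcription factors, 2 of 9 were higher and 1 lower in FLASH than in the control, and 3 of 10 were higher and 1 lower in CONV. Over all genes, 8.68% were higher and 7.88% lower in FLASH, and 11.6% higher and 5.73% lower in CONV. Cebpa, a regulator of AT2 maturation, had 303 CPM in FLASH, 266 CPM in CONV and 166 CPM in the control, with ratios to the control of 1.82 (1.49 to 2.23) in FLASH and 1.60 (1.32 to 1.94) in CONV. Tfcp2l1 was at 1.79 (1.16 to 2.81) in FLASH and 1.80 (1.20 to 2.77) in CONV, and Klf5, a Krüppel-like factor, at 1.71 (1.04 to 2.90) in CONV. Fosl2, an AP-1 subunit, was at 0.506 (0.295 to 0.852) in FLASH and 0.574 (0.364 to 0.906) in CONV. Nkx2-1, whose core motif is marked in the 2 promoters above, had 244 CPM in FLASH, 282 CPM in CONV and 310 CPM in the control, with a ratio of 0.787 (0.661 to 0.936) for FLASH over control and 0.911 for CONV over control. Between FLASH and CONV 1 of 10 was past the fold and lower, again Klf5, at 27.2 CPM in FLASH and 42.5 CPM in CONV, and it was named there after its value was seen.

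Outside AT2-like cells, Sftpc was counted in every cell class of every library, including cells that do not make it. In lymphoid cells it stood at 2400 CPM in FLASH (539 cells, 2295 to 2510), 4059 CPM in CONV (505 cells, 3935 to 4186) and 1030 CPM in the control (995 cells). These levels were 1.08% of the AT2-like level in FLASH, 1.89% in CONV and 0.435% in the control. CONV was the highest library and the control the lowest. After thinning to 1000 UMIs, 91.5% of lymphoid cells in FLASH, 95.3% in CONV and 61.5% in the control still held an Sftpc UMI, with 7 shallower FLASH cells left out. Unthinned, the shares were 96.7% in FLASH, 99.8% in CONV and 90.5% in the control. A UMI of Sftpc in a cell therefore does not mark an AT2 cell in these libraries.

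The level was similar from class to class within a library. Over the classes of at least 10 cells that are not epithelial, Sftpc had a median of 2267 CPM in FLASH (19 classes), 3221 CPM in CONV (18 classes) and 973 CPM in the control (19 classes). The classes ran between 1637 and 2593 CPM in FLASH and between 739 and 1805 CPM in the control. In CONV they ran between 2409 and 8156 CPM. The top class in CONV was the NK-like one, in which a single cell held 640 Sftpc UMIs. Its median over cells was 3062 CPM, and the next class was at 5016 CPM. The median class level was 1.02% of the AT2-like level in FLASH, 1.5% in CONV and 0.411% in the control. The AT2-like share of all cells, given above, was highest in CONV and lowest in the control as well, and its part in the free level was not tested.

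**Figure D4:**
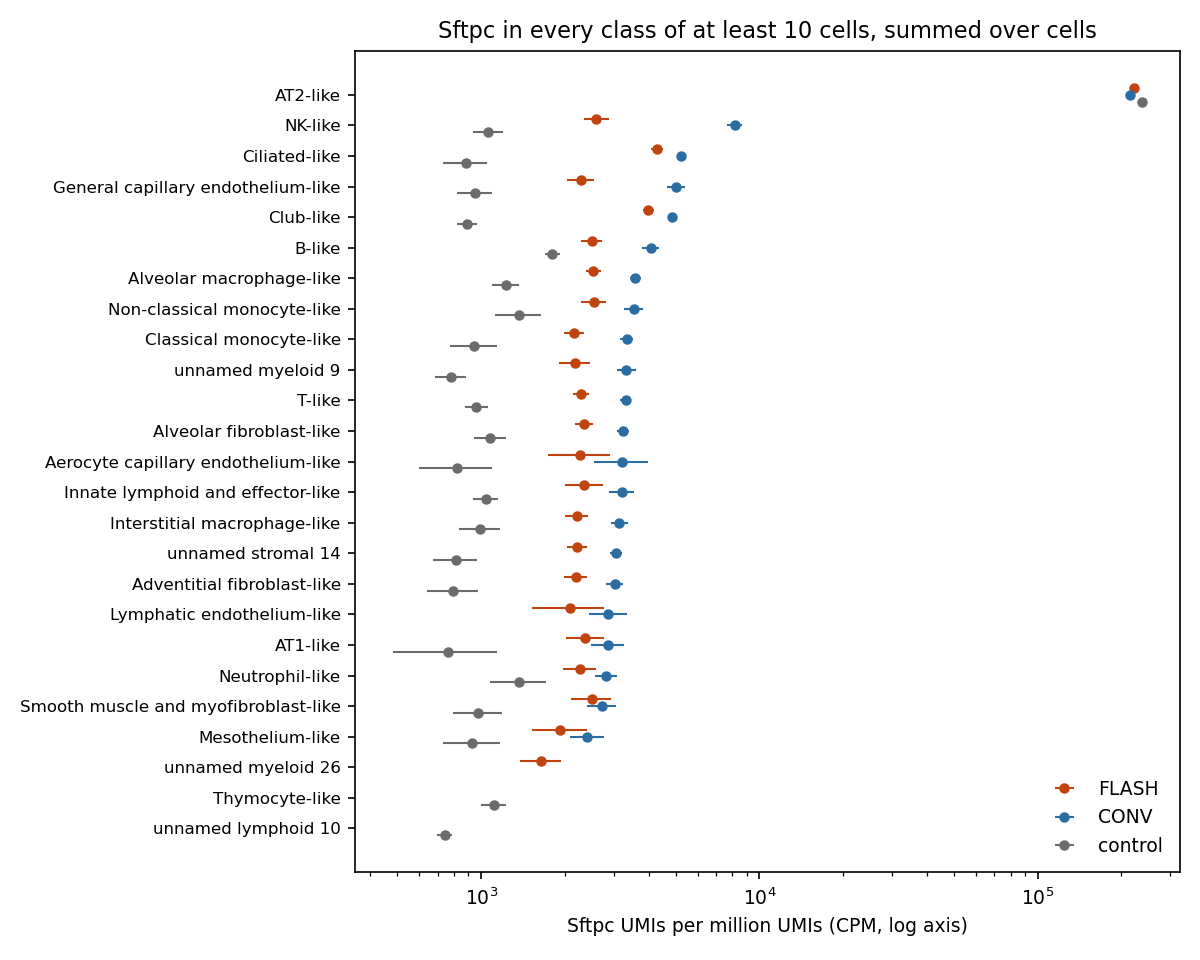
Sftpc in every class of at least 10 cells (horizontal axis, CPM, log scale) in FLASH, CONV and control, with 95% Poisson intervals for counting error. Within a library most classes other than AT2-like ones lie close together, with medians over classes that are not epithelial of 2267, 3221 and 973 CPM, and the AT2-like level is far to the right at 222530, 214850 and 236830 CPM.

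AT2-like cells held 95.6% of the Sftpc UMIs of kept cells in FLASH, 94.2% in CONV and 97.2% in the control. Slc34a2 and Lamp3 were as closely tied to the class, with 96.4% and 96.6% in FLASH, 95.1% and 95.7% in CONV, and 97.5% and 96.6% in the control. The lowest shares were those of Abca3 in FLASH and CONV and of Napsa in the control. Abca3 had 80.6% in FLASH, 81.4% in CONV and 81.6% in the control, and Napsa 81.8% in FLASH, 83.6% in CONV and 76.2% in the control. RNA that leaks out of 1 kind of cell was taken to keep its genes in 1 ratio wherever it lands. Free RNA was also taken to have the make-up of the AT2-like cells counted here. Neither premise was tested. The ratio of each gene to Sftpc in a class was therefore set against the same ratio in AT2-like cells, in the 20 other classes with at least 10 cells in each library.

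Sftpa1, Sftpb, Sftpd, Slc34a2 and Lamp3 were seldom above the AT2-like ratio to Sftpc. The interval lay above 1 in all 3 libraries in 1 of 20 classes each for Sftpa1, Sftpb and Sftpd, which was the club-like class, and in none for Slc34a2 and Lamp3. Sftpa1, Sftpd and Slc34a2 were above it in 1 or 2 libraries in 4 classes each, Lamp3 in 2 and Sftpb in 1. Intervals below 1 were not counted. Lamp3 had few UMIs in most classes, so its intervals were wide and a departure could go unseen. In T-like cells Lamp3 was at 3.87 times the ratio in the control (1.96 to 7.65) and 0.178 times in CONV (0.0359 to 0.884). B-like cells may serve as an example, with an Sftpa1 count of 64 UMIs in FLASH, 93 in CONV and 98 in the control. The counts expected from Sftpc were 61.9 in FLASH, 98.1 in CONV and 101 in the control. A single B-like cell held 165 of the 798 Sftpc UMIs in CONV, and 1 held 384 of the 939 in the control. The expected counts of these 2 libraries thus rest in part on 1 cell each. Intervals of the ratios to Sftpc were not adjusted for the number of classes. Lamp3 is known from human tissue as a marker of mature dendritic cells. In the cluster led by the dendritic cell genes Ccl22, Ccl17 and Cd209a, which stayed unnamed, it had 0 UMIs in FLASH, 2 in CONV and 0 in the control. The top genes of this cluster also held Siglech and Klk1, markers of plasmacytoid dendritic cells, and Xcr1, a marker of type 1 dendritic cells. Its Lamp3 counts therefore do not describe mature dendritic cells alone.

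Napsa departed from this pattern in several immune classes. It was above the AT2-like ratio in all 3 libraries in 6 of 20 classes: B-like cells, classical and non-classical monocyte-like cells, alveolar macrophage-like cells, neutrophil-like cells and the unnamed cluster led by Ccl22. In B-like cells it had 104 UMIs in FLASH, 77 in CONV and 260 in the control, where 5.01, 7.96 and 8.21 were expected from Sftpc. That is 497 CPM in FLASH (406 to 602), 394 CPM in CONV (311 to 492) and 500 CPM in the control (441 to 564), between 18.4% and 24.1% of the AT2-like level. The 3 libraries overlapped in their counting intervals.

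In classical monocyte-like cells Napsa had 500 CPM in FLASH, 484 CPM in CONV and 614 CPM in the control. In non-classical monocyte-like cells it had 629 CPM in FLASH, 681 CPM in CONV and 535 CPM in the control, and in the cluster led by Ccl22 457 CPM in FLASH, 421 CPM in CONV and 442 CPM in the control. Alveolar macrophage-like cells were much lower, at 45.0 CPM in FLASH, 60.6 CPM in CONV and 32.8 CPM in the control. T-like cells held 14 Napsa UMIs in FLASH, 15 in CONV and 7 in the control, where 8.44, 18.6 and 3.71 were expected from Sftpc.

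**Figure D5:**
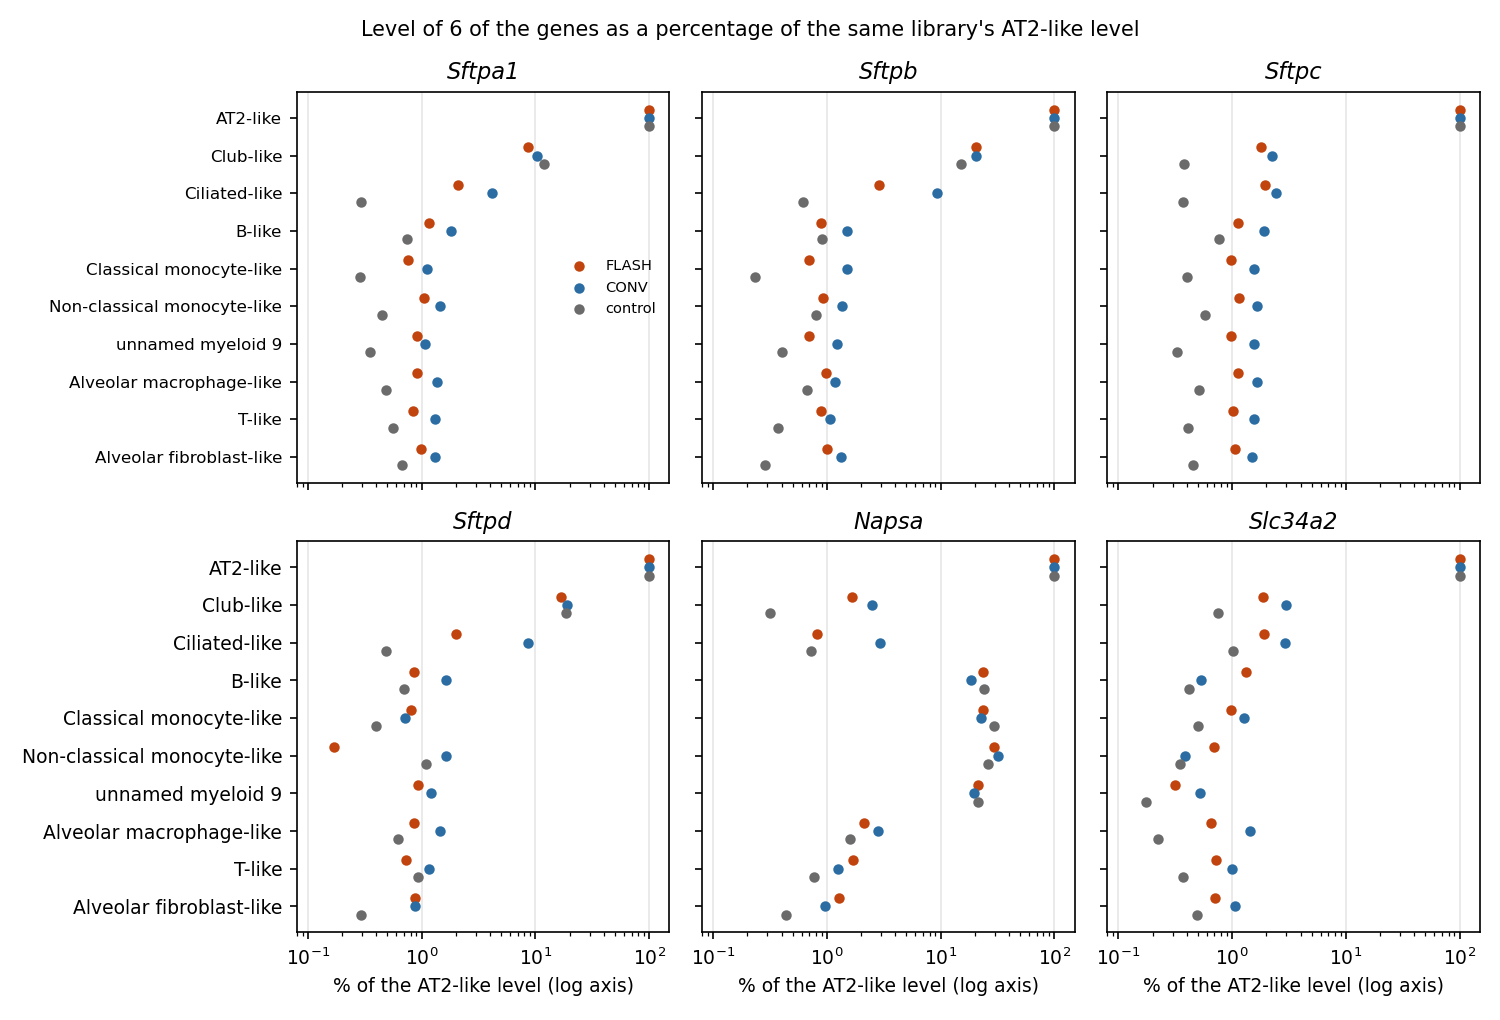
Level of Sftpa1, Sftpb, Sftpc, Sftpd, Napsa and Slc34a2 in 10 cell classes as a percentage of the AT2-like level of the same library (horizontal axis, log scale) in FLASH, CONV and control. Napsa stands apart in B-like, monocyte-like and Ccl22-led cells, and Sftpa1, Sftpb and Sftpd in club-like cells. Sftpd in the Ccl22-led cluster (unnamed myeloid 9) was 0 in the control and is not drawn.

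Club-like cells, the secretory cells of the airway, carried the transcripts of SP-A, SP-B and SP-D beyond the level that AT2-like RNA would give for their Sftpc. There were 40 such cells in FLASH, 56 in CONV and 32 in the control. Sftpb was at 2939 CPM in FLASH (2788 to 3096), 3030 CPM in CONV (2895 to 3169) and 2365 CPM in the control (2245 to 2490). The counts were 1421 UMIs in FLASH, 1912 in CONV and 1449 in the control, where 125, 213 and 36.3 were expected from Sftpc. The control was the low library and the irradiated ones overlapped.

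Sftpa1 in club-like cells was at 2246 CPM in FLASH (2115 to 2384), 2738 CPM in CONV (2610 to 2870) and 3055 CPM in the control (2918 to 3197). Its counts of 1086, 1728 and 1872 UMIs stood against 228, 376 and 58.7 expected. The order by the median over cells was the opposite, with 1726 CPM in FLASH, 1277 CPM in CONV and 1101 CPM in the control, and a single control cell held 315 Sftpa1 UMIs. Sftpd was at 654 CPM in FLASH (584 to 730), 699 CPM in CONV (635 to 767) and 867 CPM in the control (794 to 944), or 16.7%, 18.8% and 18.7% of the AT2-like level. Sftpc in the same cells was at 3986 CPM in FLASH, 4849 CPM in CONV and 891 CPM in the control, or 1.79%, 2.26% and 0.376% of the AT2-like level. In FLASH this was above the level of every class that is not epithelial, and in CONV above all but the 2 highest of them. The median over club-like cells was 3060 CPM in FLASH, 4397 CPM in CONV and 879 CPM in the control, against a highest cell median among classes that are not epithelial of 2544 CPM in FLASH, 3519 CPM in CONV and 1185 CPM in the control. Sftpc in club-like cells thus lay above those classes in FLASH and CONV and not in the control. One club-like cell held 480 Sftpc UMIs in FLASH and 1 held 473 in CONV.

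Napsa kept the AT2-like ratio to Sftpc in club-like cells, at 0.948 times in FLASH (0.591 to 1.52), 1.13 times in CONV (0.807 to 1.58) and 0.942 times in the control (0.372 to 2.38). Lamp3 had 6 UMIs in FLASH, 19 in CONV and 0 in the control. Club-like cells were deep, with medians of 12658 UMIs in FLASH, 12001 in CONV and 23926 in the control. In ciliated-like cells Sftpb reached 414 CPM in FLASH, 1390 CPM in CONV and 96.9 CPM in the control. The median of Sftpb over ciliated-like cells was 0 CPM in FLASH, 273 CPM in CONV and 105 CPM in the control. The summed level was thus above the median over cells in FLASH and CONV and not in the control. A single CONV cell held 1129 Sftpc UMIs, and its part in the Sftpb sum was not tested.

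Abca3, Lpcat1 and Etv5 had few UMIs in most classes outside AT2-like cells but were often above the ratio to Sftpc. The interval lay above 1 in all 3 libraries in 11 of 20 classes for Abca3, 7 for Lpcat1 and 2 for Etv5. These are small counts: Abca3 in AT1-like cells came to 6 UMIs in FLASH, 3 in CONV and 2 in the control. As levels these were 19.6%, 9.15% and 13.8% of the AT2-like level. Lpcat1 in AT1-like cells had 9 UMIs in FLASH, 3 in CONV and 3 in the control, or 19.5%, 5.86% and 15.1% of the AT2-like level. In ciliated-like cells Abca3 was at 60.7 CPM in FLASH, 61.4 CPM in CONV and 44.7 CPM in the control, or 13.5%, 13.6% and 9.37% of the AT2-like level. Lpcat1 in B-like cells had 10 UMIs in FLASH, 10 in CONV and 21 in the control, where 1.60, 2.62 and 2.61 were expected. Etv5 in interstitial macrophage-like cells had 10 UMIs in FLASH, 7 in CONV and 1 in the control, where 0.665, 1.16 and 0.171 were expected.

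Likeness of pattern was measured by Pearson's r of log2(CPM + 1) over 57 pools, each a class in 1 library with at least 20 cells, from 21 classes and among 10684 genes. Pools of a library share its depth and its free RNA, so r is a description and has no p. Sftpa1 and Sftpb were the most alike of the set, at r = 0.97. Outside the set, Sftpa1 and Sftpb were nearest to Chil1, a chitinase-like protein of AT2 cells (r = 0.88 and 0.86), and Sftpc and Etv5 to S100g, a calcium-binding protein (0.83 and 0.70). Slc34a2 and Sftpd were nearest to C77370 (0.84 and 0.79), Lamp3 to Tinag (0.75), Abca3 to Rprm (0.71) and Lpcat1 to Pla2g1b, a secreted phospholipase (0.65). Napsa was nearest to H2afj, a histone variant (0.66), followed by Cd74, the MHC class II invariant chain (0.66), and Lyz2, the lysozyme of myeloid and AT2 cells (0.66). For Napsa 1 other gene of the set was among its 20 nearest genes, while each of the other 9 genes had 4 or 5.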

How the data were processed

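The deposited values were raw UMI counts, 1 whole number for each gene in each barcode. The authors used Cell Ranger 2.0 and build mm10, per the submitters' processing notes. Each matrix came with gene and barcode lists, and the order of genes and cells was checked against its size line. No deposited column of per-sample values was left unmapped. A barcode was dropped below 200 genes (50 barcodes) or above 10% mitochondrial UMIs (154 barcodes). Doublets were scored with Scrublet in each library. The highest-scoring barcodes were marked, at a rate of 0.8% of a library for each 1000 barcodes in it. Of these, the 112 that had passed the 2 filters above were removed at this step. The automatic threshold marked 52 (0.781%).

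Cells were scaled to 10000 UMIs and clustered without integration from 2000 variable genes, with the 10 surfactant and lamellar body genes left out, 30 principal components, 15 neighbours and Leiden resolution 1. Names for the 27 clusters came from markers of 28 types, detected in at least 10% of cells and at least 2 times higher than elsewhere, with at least 3 such markers per cluster. A cluster with no own marker among its top 10 genes, or with more of another type there, stayed unnamed, and 4 did. Names mean "like" that type.

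Totals were 5498902 UMIs in FLASH, 7463259 in CONV and 7114360 in the control, and AT2-like cells held 1065276, 1575672 and 883375 UMIs. CPM carry exact Poisson intervals, shares of cells exact Clopper-Pearson intervals, ratios exact conditional binomial intervals and ratios to Sftpc Woolf intervals with 0.5 added to each count, all at 95% and for counting error only. Log2 ratios used a pseudocount of 1 CPM for lists. The background held every gene with 30 or more UMIs in the library where it was higher, and 1.5-fold was the limit. To compare shares, cells were thinned to 1000 UMIs. Expected counts are Sftpc UMIs times the AT2-like ratio of the gene to Sftpc. The ratio code was tested on simulated data.

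All 10 genes are named, and of each other list up to 4 genes per comparison whose interval bound nearest to 1 lay farthest from 1. For likeness the 3 nearest genes of each were listed, among genes with at least 100 UMIs. The genes and lists were chosen with earlier results of these data known. Positions came from GENCODE M21 (mm10), in which 27645 of 27998 gene IDs were found, and promoters from RefSeq GRCm38.p6. The work was done in Python 3.11.15. Clustering used scanpy 1.11.5 with igraph 0.11.9 and anndata 0.12.19. Tables and intervals were made with pandas 2.3.3, scipy 1.17.1 and numpy 2.4.6, and figures with matplotlib 3.10.9.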

Additional observations from a re-analysis of the deposited data

Results flagged for a closer look

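Sftpa1 and Sftpb stood out because their ratio to the control ran one way in AT2-like cells and the other way in club-like cells, each with an interval that left out 1. With 1 library per group the difference between cell types was not tested. Sftpa1 in club-like cells was 0.735 for FLASH over control (0.682 to 0.793), against 1.03 in AT2-like cells, and 0.896 for CONV over control (0.839 to 0.957), against 1.04. Sftpb in club-like cells was 1.24 for FLASH over control (1.15 to 1.34), against 0.918 in AT2-like cells, and 1.28 for CONV over control (1.20 to 1.37), against 0.95. The 2 comparisons share the control library.

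Sftpc in club-like cells differed as well, at 4.47 times the control in FLASH and 5.44 times in CONV. Its median over classes that are not epithelial was 2267 CPM in FLASH, 3221 CPM in CONV and 973 CPM in the control. How much of the Sftpc in club-like cells was free RNA was not tested. With the counts expected from Sftpc taken off, the Sftpb ratio was 1.16 in FLASH and 1.17 in CONV, and the Sftpa1 ratio 0.6 in FLASH and 0.724 in CONV. By the median over club-like cells, Sftpb was 1.43 in FLASH and 1.23 in CONV, and Sftpa1 1.57 in FLASH and 1.16 in CONV, so the direction of Sftpa1 depended on whether cells were summed. These last alternatives were chosen after the data were seen.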

How the results depend on the processing

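No paired analysis was possible because each group is 1 library and the labels give no shared replicate numbers, and no replicate could be left out. The set's median and share moved furthest when AT2-like cells were taken by a gate on their 8 markers in all epithelial clusters, which brought in 33 FLASH, 50 CONV and 23 control cells from outside the AT2-like cluster. The other epithelial clusters were AT1-like, ciliated-like and club-like. Club-like cells were deep, with a control median of 23926 UMIs against 6466 in AT2-like cells, and their part in the move was not tested. Under the gate the median log2 ratio of the 10 genes was 0.11 for FLASH over control and 0.082 for CONV over control. Over all genes tested under the gate it was 0.057 and 0.14. Sftpb was 1.03 and 1.05, Sftpc 1.08 and 1.01, and the share of the set 19.5% in FLASH, 18.5% in CONV and 18.1% in the control. The other 31 medians of the set over the alternatives kept their direction or moved within counting error. The largest move of a single gene's ratio was that of Etv5 at a mitochondrial limit of 5%, where it was 1.46 for CONV over control, and 1.34 for FLASH over control. At a limit of 25% above the lower library, 2 of 10 genes passed for FLASH over control and 2 for CONV over control, beside 41.5% and 41.9% of all genes.

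The share of AT2-like UMIs on the set was 28.8%, 28.2% and 30.9% (FLASH, CONV, control) at a mitochondrial limit of 5%, 27.0%, 26.4% and 28.7% with every cell weighted the same, and 28.8%, 28.1% and 30.6% with free RNA subtracted. It was 27.5% in FLASH and 26.9% in CONV in cells of at least 2000 UMIs, 26.6% in CONV without doublet removal and 29.0% in the control at a mitochondrial limit of 20%. The control stayed the highest library except under the marker gate.

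Sftpc in lymphoid cells was 2922 CPM in CONV and 867 CPM in the control without cells of 10 or more Sftpc UMIs, 3114 and 863 CPM as a median over cells, 3192 and 894 CPM at a mitochondrial limit of 5%, and 1274 CPM in the control without thymocyte-like clusters. As a share of all epithelial cells' level, the median class was at 1.85% in FLASH, 2.63% in CONV and 0.770% in the control. The cells of at least 2000 UMIs and the median over cells were chosen after the data were seen. The precision of the lowest gene, Etv5, was set by its 259 to 544 AT2-like UMIs per library.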
